A study of Rattus norvegicus with 9 samples.

Results

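The IL-33 receptor gene Il1rl1, which encodes ST2, was described with 6 genes of the IL-1 family around it in pancreatic stellate cells of the rat, cultured on 3 surfaces. The other 6 genes were Il33, Il1r1, Il1rap, Il1a, Il1b and Il1rn. A gene was taken from the array entries that the probe table pairs with that symbol and no other, keeping the entry with the highest mean. Each of the 7 genes had exactly 1 such entry, and all 7 were among the 14506 genes tested. Il1rl1 was chosen by its log2 values on matrix and plastic in these arrays, so its differences between surfaces are a description and carry no test. The other genes joined by family, and their tests were made with earlier results of these arrays known.

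Pancreatic stellate cells are fibroblast-like cells that lay down matrix when activated. They came from male Sprague Dawley rats by Nycodenz density gradient, and the same number of cells per 10 cm dish was kept for 72 h in IMDM with 10% fetal bovine serum. The dishes held Matrigel, a basement membrane gel (2 arrays), collagen I, the fibrillar collagen of scar (3 arrays), or no coating (plastic, 4 arrays). RNA was measured on an Affymetrix rat whole-transcript array, and a letter in each sample title (A and S on Matrigel, A, P and Z on collagen, A, P, S and Z on plastic) is not explained by the labels. The labels do not say that arrays came from separate animals, so a p-value here measures the spread between these samples alone, which may be technical. The small number of arrays limits the precision.

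The IL-1 family consists of secreted or released cytokines that bind receptors with a shared intracellular signalling domain. IL-33, encoded by Il33, is kept in the nucleus of stromal and epithelial cells and acts as an alarm signal once it is released. It binds ST2, which then pairs with the accessory protein encoded by Il1rap. IL-1α and IL-1β bind the receptor encoded by Il1r1, which uses the same accessory protein, and both complexes signal through MyD88 and IRAK kinases to NF-κB. Il1rn encodes the receptor antagonist, which occupies the IL-1 receptor without signalling.

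The promoter sequences of the genes whose values differed most between surfaces are printed to show the sequence around each start. RefSeq promoters (GRCr8, 250 bases before to 50 bases after the start) were given for 7 of 7 genes in 9 entries. They were searched on both strands for 6 motifs. These were the AP-1 letters TGANTCA, the TATA letters TATAAA, the TEAD core GGAATG, the GATA letters AGATAA, a kappa B motif and a CArG box. Capitals mark the matches. Il1rl1 lies at chr9:50203388-50203687 on the plus strand, Il33 (the first of its 2 starts) at chr1:237115323-237115622 plus, Il1a at chr3:136989968-136990267 minus and Il1rn at chr3:27520072-27520371 plus. The start used for Il1rl1 lay 46312 bases inside the annotated gene span, and that of Il1rn lay 10486 bases inside its span, so the annotated gene begins further upstream in both.
Il1rl1: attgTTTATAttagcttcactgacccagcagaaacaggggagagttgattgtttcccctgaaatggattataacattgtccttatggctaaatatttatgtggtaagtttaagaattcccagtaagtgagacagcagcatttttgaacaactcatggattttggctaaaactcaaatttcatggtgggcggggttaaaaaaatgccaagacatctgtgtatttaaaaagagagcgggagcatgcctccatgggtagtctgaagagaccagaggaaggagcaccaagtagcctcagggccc
Il33: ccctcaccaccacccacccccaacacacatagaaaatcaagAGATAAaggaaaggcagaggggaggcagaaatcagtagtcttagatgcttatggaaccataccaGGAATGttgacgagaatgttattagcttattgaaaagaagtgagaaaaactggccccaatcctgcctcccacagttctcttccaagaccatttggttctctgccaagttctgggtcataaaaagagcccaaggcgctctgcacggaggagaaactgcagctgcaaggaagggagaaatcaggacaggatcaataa
Il1a: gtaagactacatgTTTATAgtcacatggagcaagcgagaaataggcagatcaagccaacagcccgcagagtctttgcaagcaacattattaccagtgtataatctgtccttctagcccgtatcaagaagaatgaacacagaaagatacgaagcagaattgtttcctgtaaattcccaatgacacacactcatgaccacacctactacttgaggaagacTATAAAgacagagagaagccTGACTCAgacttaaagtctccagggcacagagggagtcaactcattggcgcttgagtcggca
Il1rn: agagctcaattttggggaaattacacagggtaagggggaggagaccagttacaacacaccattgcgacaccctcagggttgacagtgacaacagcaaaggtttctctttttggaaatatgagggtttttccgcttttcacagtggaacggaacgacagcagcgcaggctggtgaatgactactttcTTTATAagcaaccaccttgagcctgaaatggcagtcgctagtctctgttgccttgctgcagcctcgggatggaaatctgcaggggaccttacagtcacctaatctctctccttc

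The Il1rl1 window held the TATA letters once, 246 bases before the start, and none of the other 5 motifs. The Il33 window held the TEAD core 145 bases and the GATA letters 209 bases before the start. The Il1a window held the AP-1 letters 12 bases before the start and the TATA letters 237 and 32 bases before it. The Il1rn window held the TATA letters 64 bases before the start. Of 33465 rat promoters of the same length, 7.33% held the AP-1 letters, 14.2% the TATA letters, 14.2% the TEAD core, 11.6% the GATA letters, 4.18% the kappa B motif and 1.64% the CArG box. The kappa B motif was matched at Il1r1 and Il1rap among the 7 genes, and at Il1r1 it overlapped a TEAD core. A match is a description of letters and not of binding.

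Il1rl1 was high on plastic and low on both matrices. Its log2 expression was 7.01 and 5.53 on Matrigel, 6.0, 6.88 and 5.72 on collagen, and 10.60, 11.20, 10.22 and 10.64 on plastic. Each of the 5 matrix arrays lay at least 3.21 below the lowest plastic array on the log2 scale, and the Matrigel and collagen arrays overlapped. The mean was 6.27 ± 1.05 on Matrigel (SD, n = 2), 6.20 ± 0.60 on collagen (SD, n = 3) and 10.66 ± 0.40 on plastic (SD, n = 4). The fitted difference from plastic was -4.39 ± 0.45 on Matrigel (SE), or 21.0-fold lower. On collagen it was -4.46 ± 0.40 (SE), or 22.1-fold lower, and no other of the 14506 genes tested had a larger difference between collagen and plastic in either direction. Both differences use the same plastic arrays. The probe set is paired with 2 RefSeq transcripts, so soluble and membrane forms of ST2 could not be told apart. In bulk RNA, fewer cells that express a gene and less RNA per cell cannot be told apart either.

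**Figure D1:**
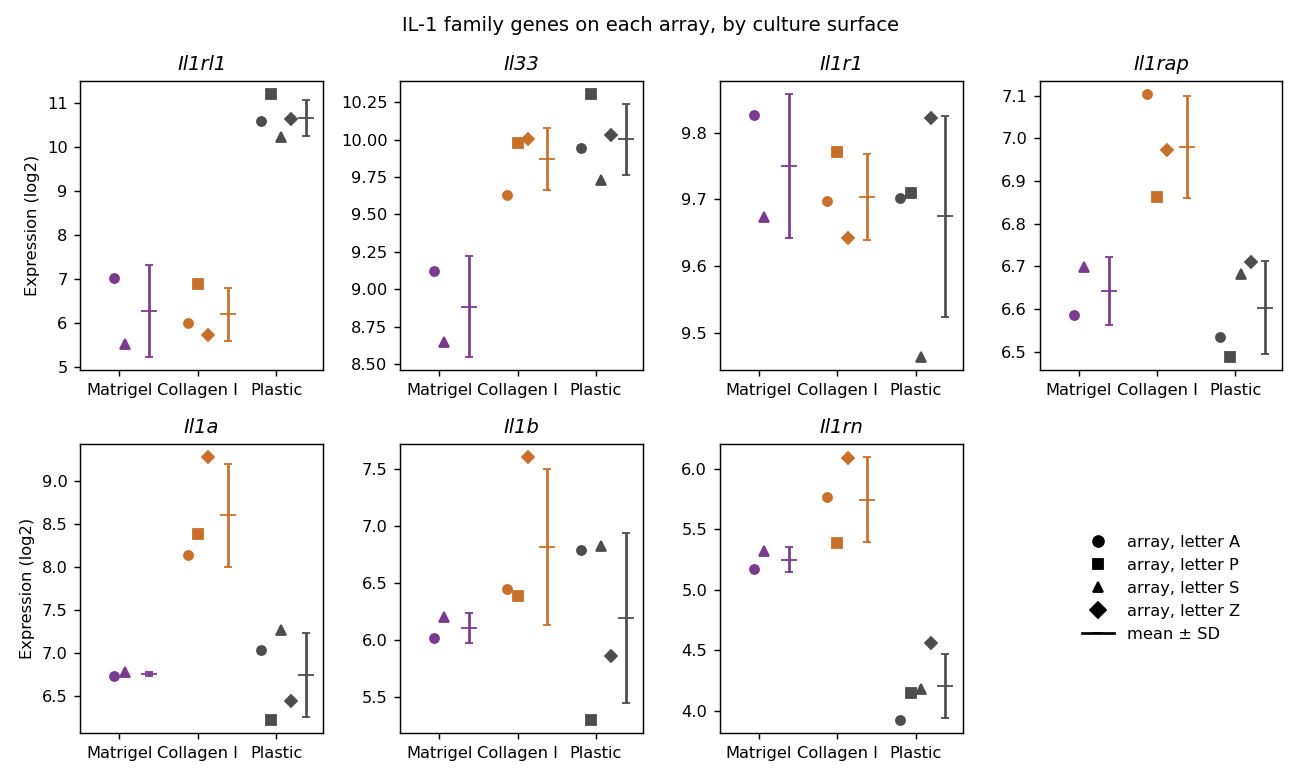
Log2 expression (y axes, each gene on its own scale) of the 7 genes on every array by culture surface, with the title letter as the symbol and the mean ± SD beside the points. The Il1rl1 points on Matrigel and collagen lie between 5.53 and 7.01, below all plastic points, which start at 10.22, and Il1a is highest on the collagen arrays.

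The choice of Il1rl1 used its values on the matrices as well, so its comparison between them is not independent of that choice. As a description, its level on Matrigel differed from that on collagen by 0.07 ± 0.48 on the log2 scale (SE). The 95% confidence interval ran from -1.02 to 1.16, so a difference of about 2-fold in either direction lies within it. Within each letter the difference from plastic was -3.58 (A) and -4.69 (S) on Matrigel, and -4.60 (A), -4.32 (P) and -4.91 (Z) on collagen. The Matrigel array of letter A was the highest matrix array, 1.02 above the collagen array of that letter. Without that array the fitted difference between Matrigel and plastic was -5.13, and without the Matrigel array of letter S it was -3.65.

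Il33, the ligand of ST2, was lower on Matrigel than on both other surfaces. It read 9.12 and 8.65 on Matrigel, 9.63, 9.97 and 10.00 on collagen, and 9.95, 10.30, 9.73 and 10.03 on plastic. Both Matrigel arrays lay below every other array, and the collagen and plastic arrays overlapped. Il33 fell by 1.12 on the log2 scale on Matrigel relative to plastic (SE 0.19, 2.17-fold, limma adjusted p = 0.00761). The call was lost without Matrigel replicate 2 (limma adjusted p = 0.0542) and when plastic was limited to letters A and S (limma adjusted p = 0.0563). Collagen and plastic differed by -0.13 ± 0.17 (SE, limma adjusted p = 0.739), with a 95% interval from -0.51 to 0.24. Il33 was also called lower on Matrigel than on collagen, with a difference of -0.98 ± 0.20 (SE, 1.98-fold, limma adjusted p = 0.0421), but that call was lost in 12 of 19 alternatives, the title letter as a replicate block among them (limma adjusted p = 0.106).

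The receptor subunits showed small differences or none that passed. Il1r1, the signalling receptor of IL-1α and IL-1β, lay between 9.46 and 9.83 on all 9 arrays. Its difference from plastic was 0.08 ± 0.10 on Matrigel (limma adjusted p = 0.742, 95% interval -0.16 to 0.31) and 0.03 ± 0.09 on collagen (limma adjusted p = 0.907, 95% interval -0.18 to 0.24). Neither interval reaches beyond 0.31 on the log2 scale. Il1rap, the accessory subunit of both receptors, read 6.59 and 6.70 on Matrigel, 7.10, 6.86 and 6.97 on collagen, and 6.54, 6.49, 6.68 and 6.71 on plastic. All collagen arrays lay above all others. Il1rap rose by 0.38 ± 0.09 on collagen relative to plastic (SE, 1.30-fold, limma adjusted p = 0.0369), a call lost in 7 of 19 alternatives with adjusted p up to 0.113. On Matrigel it differed from plastic by 0.04 ± 0.10 (limma adjusted p = 0.874), and from collagen by -0.34 ± 0.10 (limma adjusted p = 0.137).

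Of the agonist ligands, Il1a was higher on collagen than on plastic. IL-1α acts from the cell surface, the nucleus and, after release, on neighbouring cells. Il1a read 6.74 and 6.78 on Matrigel, 8.14, 8.38 and 9.28 on collagen, and 7.03, 6.23, 7.27 and 6.44 on plastic. The collagen arrays stood apart above all others, while the Matrigel arrays lay within the plastic range. Il1a rose by 1.86 ± 0.32 on collagen relative to plastic (SE, 3.63-fold, limma adjusted p = 0.0104), and it passed in all 19 alternatives, with adjusted p from 3.98e-05 to 0.0358. Matrigel and plastic differed by 0.02 ± 0.36 (limma adjusted p = 0.989, 95% interval -0.80 to 0.84). Relative to collagen Il1a was called lower on Matrigel, with a difference of -1.84 ± 0.38 (SE, 3.59-fold, limma adjusted p = 0.0448), a call lost in 12 of 19 alternatives. With the title letter as a replicate block it was -2.11 (limma adjusted p = 0.108).

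Il1b, which encodes the secreted IL-1β, spread widely within collagen and within plastic. It read 6.02 and 6.20 on Matrigel, 6.45, 6.39 and 7.61 on collagen, and 6.79, 5.30, 6.83 and 5.86 on plastic. Matrigel and collagen each overlapped plastic but not each other, and the collagen array of letter Z was the highest of the 9. No comparison passed. Il1b differed by -0.09 ± 0.48 between Matrigel and plastic (limma adjusted p = 0.950, 95% interval -1.19 to 1.01) and by 0.62 ± 0.43 between collagen and plastic (limma adjusted p = 0.508, 95% interval -0.35 to 1.59). The difference between Matrigel and collagen was -0.71 ± 0.51 (limma adjusted p = 0.538). Il1a and Il1b are adjacent protein-coding genes on chromosome 3.

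Il1rn, the antagonist, was higher on both matrices than on plastic. It read 5.17 and 5.32 on Matrigel, 5.76, 5.38 and 6.09 on collagen, and 3.93, 4.15, 4.18 and 4.56 on plastic. No matrix array overlapped a plastic array. The plastic mean of 4.20 lay under 4.25, the 40th percentile of mean level over the genes tested, which is taken here as dim. With any plastic array below that level raised to it, the mean difference was 0.92 on Matrigel, or 1.90-fold higher. On collagen it was 1.42, or 2.67-fold higher. These are estimates and not lower limits. In the fit Il1rn rose by 1.04 ± 0.21 on Matrigel (SE, limma adjusted p = 0.0160) and by 1.54 ± 0.18 on collagen (SE, limma adjusted p = 0.00209). The Matrigel call was lost without Matrigel replicate 1 (limma adjusted p = 0.0740) or 2 (limma adjusted p = 0.0887), and the collagen call passed in all 19 alternatives. Matrigel and collagen differed by -0.50 ± 0.22 (limma adjusted p = 0.302).

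**Figure D2:**
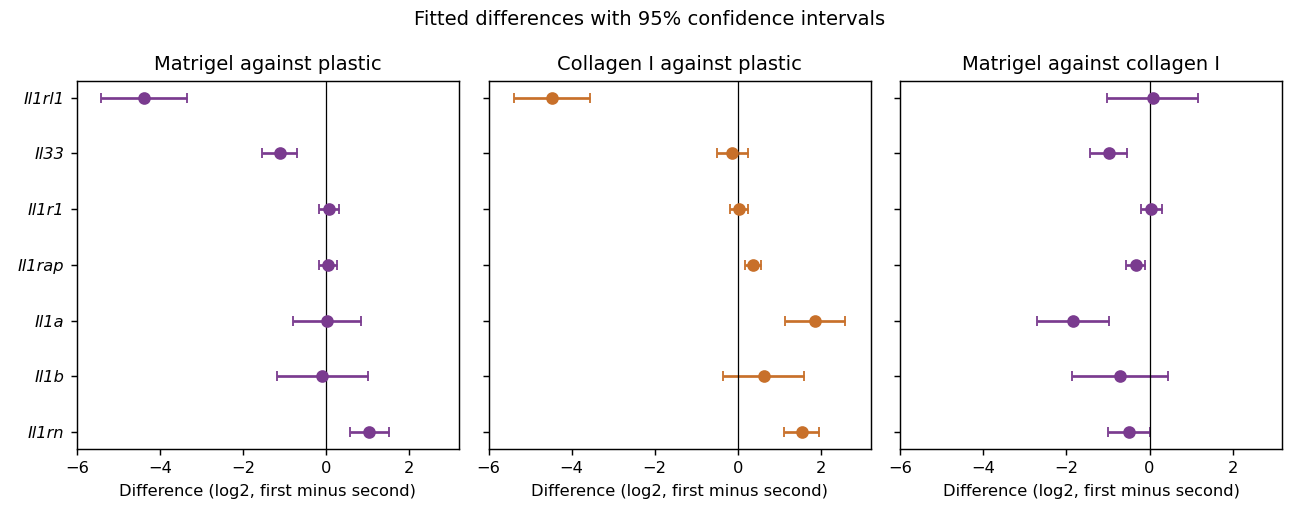
Fitted log2 differences (x axes, first surface minus second) of the 7 genes with 95% confidence intervals from limma, for Matrigel against plastic, collagen against plastic and Matrigel against collagen. The Il1rl1 intervals are a description, at -4.39 and -4.46 against plastic, and the Il1a difference is 1.86 on collagen and 0.02 on Matrigel.

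Of the 6 genes that were tested against plastic, Il1rn passed as higher and Il33 as lower on Matrigel, where 4.52% of all genes tested were called higher and 5.85% lower. On collagen Il1a, Il1rap and Il1rn passed as higher and 0 passed as lower, against 2.95% of all genes called higher and 3.17% lower. Between Matrigel and collagen 0 of these 6 genes passed as higher and Il33 and Il1a passed as lower, against 1.21% and 1.45% of all genes. The Il1r1 and Il1b genes passed in none of the 3 comparisons. The median difference of all genes tested was -0.01 between Matrigel and plastic, 0.00 between collagen and plastic and -0.02 between Matrigel and collagen. Whether a gene's difference from plastic on Matrigel equals that on collagen is the comparison of Matrigel with collagen already given. It passed for Il33 and Il1a, each call lost in 12 of 19 alternatives. It did not pass for Il1rn or Il1rap, and for Il1rl1 it is a description.

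Differences within a letter were read for several of the genes. Collagen and plastic arrays that share a letter deviated together from their surface means, with r = 0.196 (A), 0.234 (P) and 0.269 (Z) over the genes tested. These letters were therefore read as pairs for that comparison. For the collagen array of letter A, plastic S gave a slightly higher value (r = 0.243). Il1a was higher on collagen than on plastic in each pair, by 1.11 (A), 2.16 (P) and 2.84 (Z). Il1rn was higher in each pair by 1.84 (A), 1.23 (P) and 1.53 (Z), and Il1rap by 0.57 (A), 0.38 (P) and 0.26 (Z). For Il1a, Il1rn and Il1rap every collagen array lay above every plastic array, so any pairing of the arrays gives that sign. The pairs did not go the same way for Il1b, which differed by -0.34 (A), 1.09 (P) and 1.74 (Z). On Matrigel, Il33 was lower than on plastic of the same letter with differences of -0.82 (A) and -1.08 (S), and Il1rn was higher by 1.25 (A) and 1.14 (S). No pairing was read between Matrigel and plastic, and neither gene's Matrigel arrays overlapped its plastic arrays, so any pairing gives those signs.

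**Figure D3:**
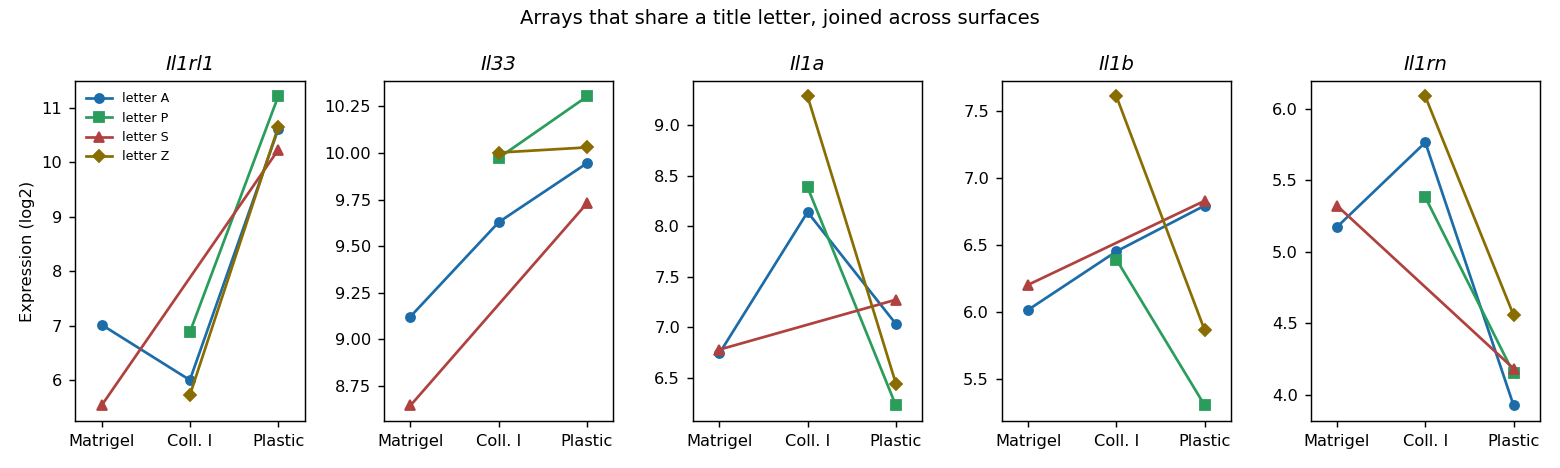
Log2 expression (y axes, each gene on its own scale) of Il1rl1, Il33, Il1a, Il1b and Il1rn by culture surface, with arrays that share a title letter joined by a line. All lines for Il1rl1 are highest at plastic, and the lines for Il1b do not run in a common direction.

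The cells carried stellate and fibroblast RNA on every surface. The mean of 12 stellate and fibroblast markers was 9.51 on Matrigel, 10.19 on collagen and 10.24 on plastic, and 4 of the 12 fell on Matrigel relative to plastic. These were Lum (difference -2.43, limma adjusted p = 0.0173), Thy1 (-2.04, limma adjusted p = 0.000935), Des (-1.93, limma adjusted p = 0.000208) and Col3a1 (-0.93, limma adjusted p = 0.0238). On collagen 1 fell, Des, which encodes desmin (difference -0.77, limma adjusted p = 0.00580). Vim, Col1a1, Pdgfrb and Des were measured above the dim level, and Gfap was dim on all surfaces. Macrophage markers, of which 17 of 18 were measured, averaged 7.36 (A) and 7.66 (S) on Matrigel, 6.06 (A), 6.17 (P) and 7.05 (Z) on collagen, and 6.85 (A), 6.07 (P), 7.16 (S) and 6.20 (Z) on plastic. Of these 17 genes 2 passed as higher on Matrigel than on plastic, and 0 passed between collagen and plastic. On Matrigel 16 of the 17 lay above plastic, with a median difference of 1.01. On collagen 8 of them did, with a median of -0.04. The mean of 9 islet markers was 7.39 on Matrigel, 5.98 on collagen and 5.67 on plastic, and 5 of the 9 rose on Matrigel relative to plastic, with a median difference of 1.95. The mean of 9 acinar markers was 4.81 on Matrigel (5.29 for A and 4.33 for S), 3.81 on collagen and 3.63 on plastic. Of these 9, 2 rose on Matrigel. The mean of 6 duct markers was 4.31 (A) and 3.48 (S) on Matrigel, 3.43 on collagen and 3.43 on plastic, and 0 passed. The Matrigel array of letter A had the highest islet, acinar and duct means, and the highest Il1rl1 of the matrix arrays. A link between these was not tested. On collagen 0 islet and 0 acinar markers passed. Over all genes tested, 4.52% were called higher and 5.85% lower on Matrigel, and 2.95% higher and 3.17% lower on collagen.

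Mast cells and type 2 lymphoid cells are the immune cells best known for ST2. The mean of 10 mast cell markers was 3.0 on Matrigel, 2.89 on collagen and 2.96 on plastic, and 9 of the 10 were dim on all surfaces. Fcer1a, which encodes a subunit of the IgE receptor and is a defining mast cell gene, lay between 1.92 and 2.26 on all 9 arrays. The exception was Hdc, the enzyme that makes histamine, which averaged 4.59 on Matrigel, 3.92 on collagen and 4.67 on plastic and was called lower on collagen than on plastic (difference -0.75, limma adjusted p = 0.0319). The mean of 9 T cell and group 2 innate lymphoid cell markers, Thy1 of stellate cells among them, was 4.26 on Matrigel, 4.21 on collagen and 4.26 on plastic. Cd3e, a subunit of the T cell receptor complex, lay between 1.76 and 2.0. Cd4, a coreceptor of helper T cells that rat macrophages also carry, lay between 5.43 and 7.61, and Il7r, a receptor of lymphoid cells, between 4.44 and 6.42. Neither passed in a comparison. Endothelial markers (8 measured) averaged 4.67 on Matrigel, 4.63 on collagen and 4.57 on plastic, and 1 of the 8 passed as higher on Matrigel than on plastic.

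Il1b was higher on the plastic arrays with more macrophage marker signal, and on collagen this held only for the array of letter Z. On plastic the arrays of letters A and S had the higher macrophage means and Il1b at 6.79 and 6.83, against 5.30 and 5.86 on those of P and Z. On collagen the array of letter Z had the highest macrophage mean and the highest Il1b and Il1a. Il1b was 6.45 on the collagen array of letter A, with the lowest macrophage mean, and 6.39 on that of letter P. On Matrigel, where the macrophage means were the highest of the 9 arrays, Il1b was 6.02 and 6.20. Within plastic Il1rl1 ran the other way. Its value was lowest, at 10.22, on the array of letter S with the highest macrophage mean, and highest, at 11.20, on the array of letter P with the lowest. On Matrigel the array of letter S had the higher macrophage mean and the lower Il1rl1. With the mean of the macrophage markers as a covariate, a setting added after the data had been seen, the Il1rl1 difference from plastic was -3.64 on Matrigel and -4.58 on collagen. Both Matrigel arrays had macrophage means above those of every other array. The Matrigel differences under this covariate thus extend a slope beyond the other surfaces and cannot separate surface from marker level. Under the covariate Il1b differed from plastic by -1.31 on Matrigel (limma adjusted p = 0.0176) and by 0.80 on collagen (limma adjusted p = 0.0134). Il1a differed from plastic by -0.91 on Matrigel (limma adjusted p = 0.0139) and by 2.0 on collagen (limma adjusted p = 3.98e-05). The Matrigel calls were lost for Il33 and for Il1rn, with estimates little changed and larger SEs. Il33 differed by -0.95 ± 0.25 (SE, limma adjusted p = 0.0962), against -1.12 ± 0.19 without the covariate. Il1rn differed by 0.96 ± 0.29 (SE, limma adjusted p = 0.140), against 1.04 ± 0.21. The part of macrophage, islet, acinar and duct RNA in the other Matrigel differences was not tested.

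**Figure D4:**
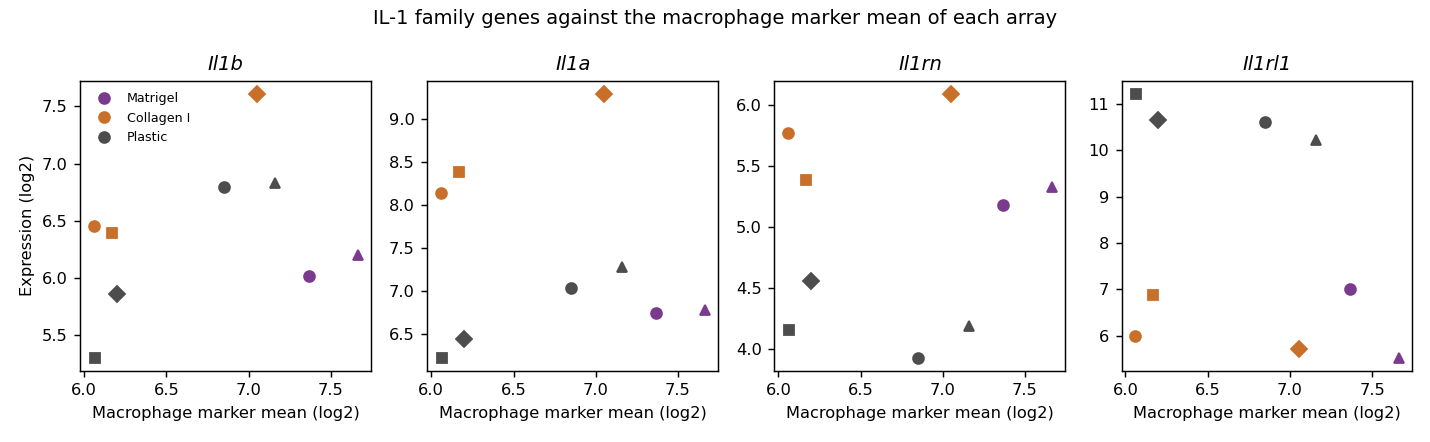
Log2 expression (y axes, each gene on its own scale) of Il1b, Il1a, Il1rn and Il1rl1 on each array against the mean of 17 macrophage markers (x axes, log2), with colour for the surface and the symbol for the title letter (circle A, square P, triangle S, diamond Z). On plastic the points with the higher marker mean have the higher Il1b, and the lower Il1rl1, which stays above 10 on every plastic array.

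The genes next to Il1rl1 did not share its pattern. RefSeq orders Il1r2, Il1r1, Il1rl2, Il1rl1, Il18r1 and Il18rap along chromosome 9, with Il18rap not measured here. Il1rl2, the IL-36 receptor, differed from plastic by -0.95 ± 0.36 on Matrigel (limma adjusted p = 0.149) and by 0.07 ± 0.32 on collagen (limma adjusted p = 0.936). Il1r2, a decoy receptor for IL-1, was dim on all surfaces and differed by 0.09 on Matrigel (limma adjusted p = 0.879). Il18r1, a subunit of the IL-18 receptor, was dim as well and differed by 0.09 on Matrigel (limma adjusted p = 0.638).

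Likeness to Il1rl1 over the 9 arrays was ranked with placeholder symbols, such as those starting with LOC or RGD, left out. The 5 genes whose values ran most like those of Il1rl1 were then Numbl (Pearson r = 0.979), Cntn2 (r = 0.975), Ccn3 (r = 0.969), Gask1b (r = 0.967) and Kcnd3 (r = 0.965). These coefficients mostly restate the gap between plastic and the matrices, because the arrays fall into separate surfaces, and they describe likeness only. Cntn2, which encodes a cell adhesion molecule of neurons, averaged 3.80 on Matrigel, 4.02 on collagen and 6.86 on plastic. Ccn3, a secreted matricellular protein, averaged 7.50 on Matrigel, 6.90 on collagen and 9.39 on plastic. Kcnd3, a potassium channel subunit, averaged 3.25 on Matrigel, 3.39 on collagen and 6.81 on plastic.

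Most of the remaining ligands and receptors of the family were too dim on every surface to show a difference. Of 6 other ligands, all measured, 0 passed in any of the 3 comparisons, and 5 were dim on all surfaces. Il18, above the dim level on Matrigel alone at a mean of 4.78, differed by 0.61 ± 0.32 between Matrigel and plastic (SE, limma adjusted p = 0.286). Their median difference was -0.03 on Matrigel and 0.02 on collagen. Of 6 measured receptors, decoys and binding proteins out of 8, 1 passed. Over all genes, 4.52% were called higher and 5.85% lower on Matrigel, and 2.95% higher and 3.17% lower on collagen. Counts of 0 and 1 among 6 genes cannot be told apart from that share. Il18bp, which binds and blocks IL-18, fell on Matrigel with a difference of -0.86 ± 0.22 (SE, 1.81-fold, limma adjusted p = 0.0448), a call lost in 13 of 20 alternatives, and its difference on collagen was -0.80 ± 0.20 (SE, limma adjusted p = 0.0504).

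Of 22 measured genes of receptor-proximal signalling and NF-κB out of 27, 5 rose and 0 fell on Matrigel, and 5 rose and 1 fell on collagen, with median differences of 0.10 and 0.06. Over all genes, 4.52% were called higher and 5.85% lower on Matrigel, and 2.95% higher and 3.17% lower on collagen. Nfkbiz, an NF-κB cofactor induced by IL-1, rose by 1.14 ± 0.12 on Matrigel (SE, limma adjusted p = 0.00122) and by 2.03 ± 0.11 on collagen (SE, limma adjusted p = 4.80e-05). Nfkbia, the inhibitor that NF-κB itself induces, rose by 1.22 ± 0.24 on Matrigel (SE, limma adjusted p = 0.0141) and by 1.49 ± 0.21 on collagen (SE, limma adjusted p = 0.00408). Peli1, a ubiquitin ligase of the IRAK complex, rose by 0.57 on Matrigel (limma adjusted p = 0.0213) and by 0.96 on collagen (limma adjusted p = 0.00156), and Nfkb2, an NF-κB subunit, by 0.77 (limma adjusted p = 0.00301) and 0.52 (limma adjusted p = 0.0122). Myd88, the adaptor of both receptors, fell by 0.32 on collagen (limma adjusted p = 0.0351) and differed by -0.08 on Matrigel (limma adjusted p = 0.621). With the title letter as a replicate block the collagen calls of Myd88 (limma adjusted p = 0.0604) and of Nfkb1, an NF-κB subunit (limma adjusted p = 0.0618), were lost, which left 4 that rose and 0 that fell. The Matrigel count of genes that rose was 2 without Matrigel replicate 1 and 2 with the macrophage covariate, and the collagen count was 3 without collagen replicate 2. The Matrigel calls of Nfkbia and Peli1 were lost without either Matrigel array. Between Matrigel and collagen Nfkbiz alone of the 22 passed, with a difference of -0.89 ± 0.13 (SE, limma adjusted p = 0.0145), lost in 5 of 19 alternatives.

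Of 23 measured genes out of 25 that IL-1 is known to induce in fibroblasts, 11 rose and 0 fell on Matrigel, and 13 rose and 0 fell on collagen, against 4.52% of all genes called higher on Matrigel and 2.95% on collagen. The other 12 on Matrigel and 10 on collagen did not pass, and Vcam1, Ccl7 and Icam1 had negative differences on both. Vcam1, an adhesion molecule for leukocytes, differed by -1.18 on Matrigel (limma adjusted p = 0.310) and by -2.16 on collagen (limma adjusted p = 0.0622). With the title letter as a replicate block, 14 rose and 1, Vcam1, fell on collagen (difference -1.76, limma adjusted p = 0.0395), and 11 rose and 1, Nos2, fell on Matrigel (difference -0.34, limma adjusted p = 0.0463). Their median difference was 0.85 on Matrigel and 0.93 on collagen, and both comparisons use the same plastic arrays. Lif, a cytokine of the IL-6 family, rose by 2.88 on Matrigel (7.38-fold, limma adjusted p = 0.000159) and by 3.97 on collagen (15.7-fold, limma adjusted p = 1.76e-05). Ptgs2, the inducible cyclooxygenase, rose by 2.70 on Matrigel (limma adjusted p = 0.000167) and by 3.12 on collagen (limma adjusted p = 3.18e-05). Cxcl1, a neutrophil chemokine, rose by 1.00 on Matrigel (limma adjusted p = 0.00122) and by 1.37 on collagen (limma adjusted p = 0.000197). Il11 rose by 0.85 on Matrigel (limma adjusted p = 0.0144) and by 2.14 on collagen (limma adjusted p = 0.000197), and its Matrigel call was lost in 4 of 20 alternatives, with adjusted p up to 0.106. Without Matrigel replicate 1 the Matrigel count was 6, with the macrophage covariate it was 8, and with only plastic letters A and S it was 6. Lif and Il11 were also called lower on Matrigel than on collagen, with differences of -1.09 ± 0.19 (SE, limma adjusted p = 0.0259, lost in 6 of 19 alternatives) and -1.29 ± 0.17 (SE, limma adjusted p = 0.0138, lost in 4 of 19). No other gene of the list passed between the matrices. The list names genes that other stimuli induce as well, and it was written with earlier results of these arrays known.

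**Figure D5:**
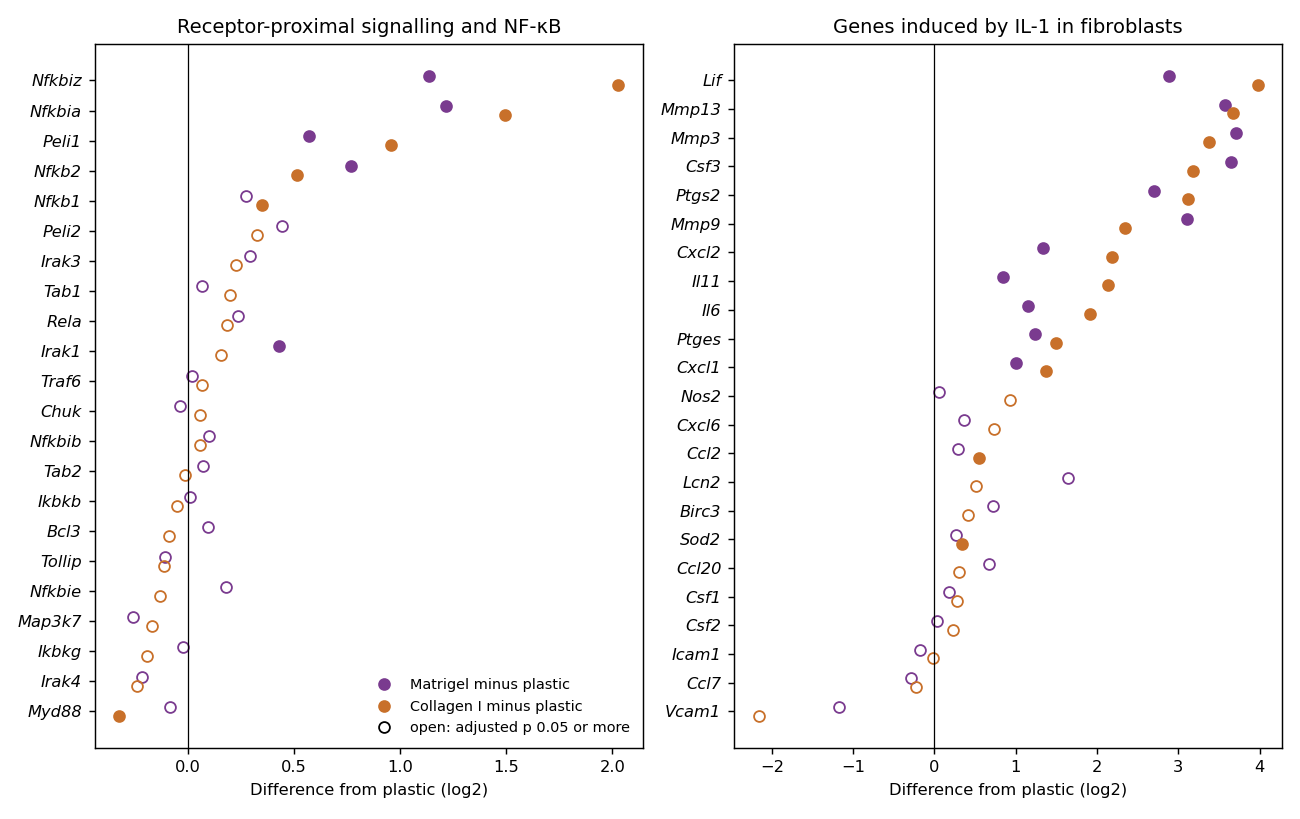
Log2 difference from plastic (x axes) of the measured genes of receptor-proximal signalling and NF-κB (left) and of genes induced by IL-1 in fibroblasts (right), for Matrigel and collagen, with open symbols for a limma adjusted p of 0.05 or more. Nfkbiz has the largest signalling difference on collagen, at 2.03, and Lif the largest induced one, at 3.97.

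Few genes that process or release the ligands passed. Of 10 measured genes out of 13, 2 fell on Matrigel and 1 fell on collagen, 0 rose on either, against 5.85% of all genes called lower on Matrigel and 3.17% on collagen, and the median difference was -0.19 on Matrigel and -0.14 on collagen. Gsdmd, the pore-forming protein through which IL-1β can leave a cell, fell on both, with a difference of -1.43 ± 0.13 on Matrigel (SE, limma adjusted p = 0.000580) and -0.73 ± 0.11 on collagen (SE, limma adjusted p = 0.00598). Capn2, a calpain subunit of a protease family that cleaves IL-1α, differed by -0.70 ± 0.09 on Matrigel (SE, limma adjusted p = 0.00246) and by -0.26 on collagen (limma adjusted p = 0.107). Both genes were called lower on Matrigel than on collagen as well, Gsdmd with a difference of -0.70 (limma adjusted p = 0.0336, lost in 10 of 19 alternatives) and Capn2 with one of -0.44 (limma adjusted p = 0.0493, lost in 14 of 19). Casp1, which cleaves IL-1β, differed by -0.59 on Matrigel (limma adjusted p = 0.0927) and by -0.57 on collagen (limma adjusted p = 0.0943). With the title letter as a replicate block, Casp1 (difference -0.81, limma adjusted p = 0.0140) and Casp4 (-0.67, limma adjusted p = 0.0137) were called lower on Matrigel. That made 4 that fell on Matrigel, and 1 fell on collagen.

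Of 12 measured type 2 cytokines, receptors and chemokines downstream of IL-33 out of 13, 0 passed in any of the 3 comparisons. Their median difference was 0.09 on Matrigel and 0.08 on collagen. Over all genes, 4.52% were called higher and 5.85% lower on Matrigel, and 2.95% higher and 3.17% lower on collagen. A count of 0 among 12 genes cannot be told apart from that share. Il5 and Il13, the cytokines that ST2 signalling is best known to induce in lymphoid cells, were dim on all surfaces, with Il5 between 2.11 and 2.33 and Il13 between 2.54 and 2.91. Il4r, a receptor subunit for IL-4 and IL-13, differed by -0.50 on Matrigel (limma adjusted p = 0.1001).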

How the data were processed

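The 9 arrays of stellate cell RNA were grouped by culture surface from the labels. The values are deposited log2 expression values that the authors made with RMA, per the submitters' processing notes. Neither the software version nor a genome build was given in the sources used here. RMA quantile-normalizes the arrays, so a change in total RNA is not seen, and the reported values were used as deposited. Array medians over the genes tested lay between 5.30 and 5.38, and arrays of the same surface correlated at 0.991 to 0.996 across genes.

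Of 29215 entries, 15310 had 1 symbol in the probe table, 323 several and 13582 none, and the brightest entry per gene was kept (14506 genes, 804 dimmer entries left out). limma 3.58.1 (R 4.3.3) fitted each of the 3 surface means with all 9 arrays in 1 model, leaving 6 residual degrees of freedom, with Benjamini-Hochberg adjustment over 14506 genes. A call is a two-sided adjusted p under 0.05. Tested on simulated data, it recovered 81% (Matrigel against plastic), 88.5% (collagen against plastic) and 82% (Matrigel against collagen) of 200 genes shifted by a log2 difference of 1 among 14506.

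The members and lists were chosen with earlier results of these data known. Named were the 5 genes most like Il1rl1, with placeholder symbols left out, and its neighbouring family receptors. All members were named, and up to 4 genes of each pathway list with the smallest adjusted p against plastic. Of these list genes a part is printed. Fcer1a, Hdc, Cd3e, Cd4, Il7r, Il5, Il13, Myd88, Nfkb1, Vcam1, Nos2, Ccl7 and Icam1 were named after their values were seen. So were Casp4, Des, Lum, Thy1 and Col3a1. Of 185 list entries 167 had a gene tested. A group mean under log2 4.25 was taken as dim. Alternatives were re-centring, repeated quantile normalization, a filter on low values, all entries, only the compared groups, moderation with trend and robust variance, limma's array weights, a fixed or random block for the title letter, and leaving out each array. The macrophage marker covariate and the fit with only plastic letters A and S were added after seeing the data. Letters pair collagen and plastic arrays, where all 3 same-letter correlations were over 0.1. For Matrigel and plastic they were -0.131 (A) and 0.406 (S), so no pairing was read. No genome sequence was used beyond RefSeq's promoter table.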

Additional observations from a re-analysis of the deposited data

Results flagged for a closer look

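On plastic, the only surface with 4 arrays, 36 named or listed genes were checked for a single array far from the other 3, and 4 had one. Chance would mark about 1 in 20 such groups. Cntn2 read 7.12 on plastic replicate 2, against 6.74 to 6.80 on the others. Il11 read 4.72 on plastic replicate 2, against 4.93 to 4.96. Il4r read 10.50 on plastic replicate 2, against 10.28 to 10.30. Areg, which encodes amphiregulin, read 3.69 on plastic replicate 1, against 4.22 to 4.24. None of the 7 IL-1 family genes described here had such an array.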

How the results depend on the processing

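Of 14506 genes, 1504 passed between Matrigel and plastic, 888 between collagen and plastic and 387 between Matrigel and collagen. Leaving out 1 array gave 759 to 1461, 552 to 870 and 68 to 352. With the macrophage covariate 491 passed between Matrigel and plastic and 10 between Matrigel and collagen, and with only plastic letters A and S 628 passed. Between Matrigel and collagen 257 passed with array weights, 66 with the letter as a fixed replicate block, and 0 with only those groups in the limma fit, where 2094 had an unadjusted p under 0.05. The cause was not tested.

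The Il1rl1 difference from plastic ran from -5.13 to -3.65 on Matrigel over the fits that leave out an array and was -3.64 with the macrophage covariate, and on collagen it ran from -4.80 to -4.23. Between Matrigel and collagen it ran from -0.67 to 0.81 without an array and was -0.084 with array weights. It was 0.62 with the letter as a fixed replicate block and 0.94 with the macrophage covariate.

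Members that did not pass changed sign as follows. Between Matrigel and plastic Il1a was -0.13 with the fixed replicate block, -0.011 with the random block, -0.91 with the macrophage covariate, -0.39 with plastic letters A and S, and -0.16 to 0.19 without an array. Il1rap was -0.010 with the fixed block and -0.018 to 0.095 without an array. Without an array Il1r1 ran from -0.000305 to 0.15 and Il1b from -0.39 to 0.12. Il1r1 ran from -0.041 to 0.078 between collagen and plastic (-0.032 with the fixed block) and from -0.030 to 0.12 between Matrigel and collagen. In the paired comparison of collagen and plastic the replicate block changed no call of the 6 members tested, whereas Myd88, Nfkb1, Vcam1 and Nos2 of the pathway lists changed theirs. The Matrigel arm has 2 arrays, so a fit without 1 of them assumes that the other varies like the other groups.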
